A study of Mus musculus and Homo sapiens with 352 samples.

Results

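The anchors described here are ends of CTCF-anchored chromatin loops at which wild-type CH12 cells had no listed CTCF peak. They were the distinct anchors of 2 loop lists, from wild-type and CTCF-mutant CH12 cells, that shared no base with any of the 39438 CTCF peaks listed for wild-type CH12 cells. Of 16928 distinct anchors, 363 met this rule and are called peakless anchors below, and the other 16565 are called anchors with a CH12 peak. The name refers to that 1 peak list only, and most of the peakless anchors did lie at a CTCF peak of normal B cells.

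CH12 is a mouse B cell lymphoma line. The series holds 352 samples in 98 groups, and the loops come from 2 of them, which are 1 ChIA-PET library of wild-type cells and 1 of cells carrying the genotype labelled ZF9to11, a change at zinc fingers 9 to 11 of CTCF. ChIA-PET ligates and sequences pairs of DNA ends held together in chromatin that was pulled down with an antibody, so that each pair counts as 1 tag for a loop. The wild-type list held 11534 loops, 74198 tags and 13547 anchors, and the mutant list held 11820 loops, 82222 tags and 12476 anchors. Both lists keep loops of 3 or more tags, so a loop missing from a list for its tags alone can still have had up to 2. The second CTCF peak list, of 59978 peaks, came from resting and activated B cells. The sources used here do not say whether the mutant line is 1 clone, and no CTCF peaks of the mutant cells were used. All coordinates are in mm9 and are counted from 1.

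CTCF binds DNA through a row of zinc fingers, at a motif that has a direction. Cohesin, a ring-shaped complex that extrudes chromatin into loops, is held back at bound CTCF, and loops tend to form between CTCF sites whose motifs point towards each other. An anchor can therefore look mostly to 1 side, and strong CTCF sites tend to anchor loops in many cell types. The central zinc fingers read the core of the motif, while the later fingers contact sequence upstream of it. With 1 library for each genotype there is no replicate check: no test was run, and every difference below is between 2 libraries. The intervals in parentheses are 95% intervals that cover counting error only and treat anchors or loops as independent.

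The peakless anchors were mostly listed in 1 library and not in the other. They divided into 167 in the wild-type list only (46.0%, 40.9 to 51.1%), 145 in the mutant list only (39.9%, 35.0 to 45.1%) and 51 in both lists (14.05%, 10.9 to 18.0%). Over all 16928 anchors the shares were 26.3% in the wild-type list only, 20% in the mutant list only and 53.7% in both. Among anchors with a CH12 peak, 54.6% (53.8 to 55.4%) were in both lists. Peakless anchors made up nearly the same small part of each list, with 218 wild-type anchors (1.61%, 1.41 to 1.84%) and 196 mutant anchors (1.57%, 1.37 to 1.80%). The mutant list was thus not richer in ends that lacked a wild-type peak than the wild-type list itself. They carried 249 wild-type loops, which is 2.16% of that list (1.91 to 2.44%), and 227 mutant loops, which is 1.92% (1.69 to 2.18%).

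Seen from each list, 51 of 218 peakless wild-type anchors recurred in the mutant list (23.4%, 18.3 to 29.4%), beside 67.1% of all wild-type anchors. From the mutant side, 51 of 196 recurred in the wild-type list (26.0%, 20.4 to 32.6%), beside 72.9% of all mutant anchors. Anchors with a CH12 peak were then placed in 10 classes by the score of their strongest peak, class 1 holding the lowest scores of the CH12 list and class 10 the highest. In the lowest class, 102 of 378 anchors were in both lists (27.0%, 22.8 to 31.7%), which lies above the interval of the peakless anchors. The share was 27.2% in class 2 and 29.6% in class 3, and then rose class by class to 73.2% in class 10. The peakless anchors lay at the low end of this series and below its weakest class. The mean number of partners was 1.14 for peakless anchors, 1.24 in class 1 and 2.21 in class 10 for wild-type loops, and 1.17, 1.33 and 2.48 for mutant loops.

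**Figure D1:**
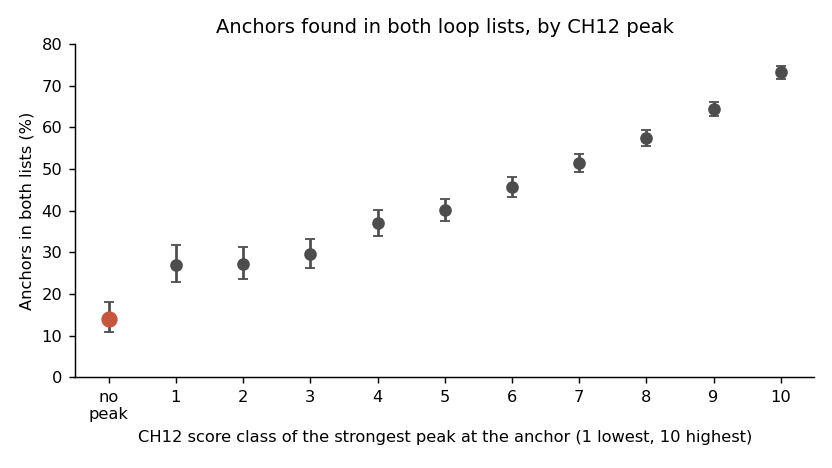
Share of anchors found in both loop lists (vertical axis, %) for anchors without a CH12 peak (red) and for anchors grouped by the score class of their strongest CH12 peak (grey, 1 lowest to 10 highest); bars are 95% Wilson intervals. The share was 14.05% without a peak, 27.0% in class 1 and 73.2% in class 10.

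A loop with few tags is easily missed in a second library, so the recurrence was also read among anchors with like numbers of tags. Among wild-type anchors with exactly 3 tags, 9 of 105 peakless anchors recurred in the mutant list (8.57%), against 42.8% of those with a CH12 peak. The share was 18 of 67 at 4 to 5 tags (26.9% against 54.0%) and 12 of 31 at 6 to 9 tags (38.7% against 68.7%). At 10 or more tags it was 12 of 15 (80%, 54.8 to 93.0%), an interval that includes the 88.2% of anchors with a CH12 peak. Against anchors with a CH12 peak of any score, the lower recurrence of peakless anchors was thus present at 3 to 9 tags. It could not be resolved among the few wild-type anchors with 10 or more. Anchors with weak CH12 peaks were not split by tags, so recurrence against these at like tags was not tested.

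Peakless anchors of the mutant list gave a like series. At 3 tags 9 of 87 recurred in the wild-type list (10.3% against 46.4%), at 4 to 5 tags 13 of 54 (24.1% against 56.6%), and at 6 to 9 tags 15 of 33 (45.5% against 71.4%). At 10 or more tags 14 of 22 recurred (63.6%, 43.0 to 80.3%), against 91.7%. In neither list was this top class matched for tags. Its peakless anchors had at most 26 wild-type and 20 mutant tags, and those with a CH12 peak at most 287 and 301. Among anchors with a single partner the gap at 6 to 9 tags was within the counting interval. There, 8 of 13 peakless wild-type anchors recurred (61.5%, 35.5 to 82.3%, against 68.0%), and 13 of 21 peakless mutant anchors (61.9%, 40.9 to 79.2%, against 73.6%).

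**Figure D2:**
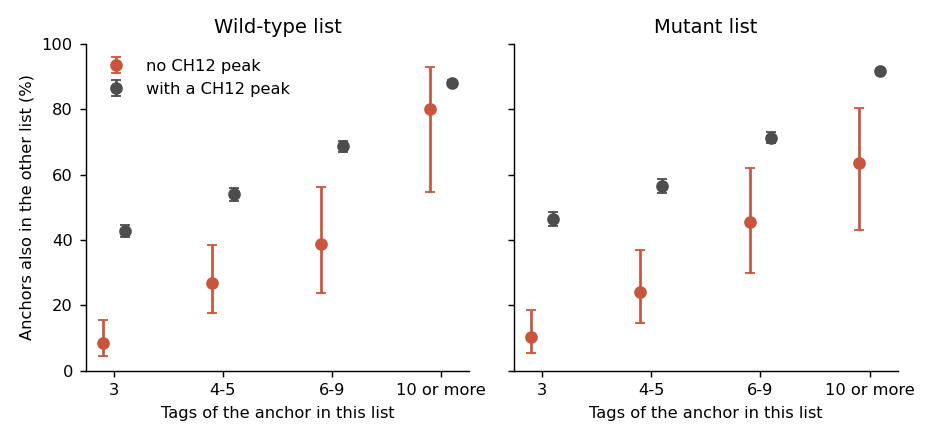
Share of the anchors of one list that were also in the other list (vertical axis, %), by the number of tags of the anchor (horizontal axis), for anchors without (red) and with (grey) a CH12 peak; bars are 95% Wilson intervals. In both panels the red points lie below the grey ones, from 8.57% against 42.8% at 3 tags in the wild-type list to 80% against 88.2% at 10 or more.

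Most peakless anchors rested on few tags. An anchor's tags are summed over its loops. The median was 4 in each list, against 7 for wild-type and 8 for mutant anchors with a CH12 peak. Few tags were not particular to them, since the medians were also 4 in each of score classes 1 to 4 in the wild-type list, and 5, 4, 5 and 5 in the mutant list. Of the 167 in the wild-type list only, 96 had exactly 3 tags (57.5%) and 3 had 10 or more, with a highest value of 18. Of the 145 in the mutant list only, 78 had 3 tags (53.8%) and 8 had 10 or more, with a highest value of 15. The 51 anchors in both lists had more, with a median of 5 wild-type tags (3 to 26) and 7 mutant tags (3 to 20). They held 361 of the wild-type tags of peakless anchors (34.4%) and 403 of the mutant ones (38.7%), although they were 14.05% of the anchors. Of these 51, 24 had more tags in the mutant list, 17 had more in the wild-type list and 10 had equal numbers. These tags were not scaled, and the mutant list held more tags in all. Counted by loop, all 5400 shared loops leaned the same way without scaling. Of them, 2803 had more tags in the mutant list, 1826 had more in the wild-type list and 771 had equal numbers.

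**Figure D3:**
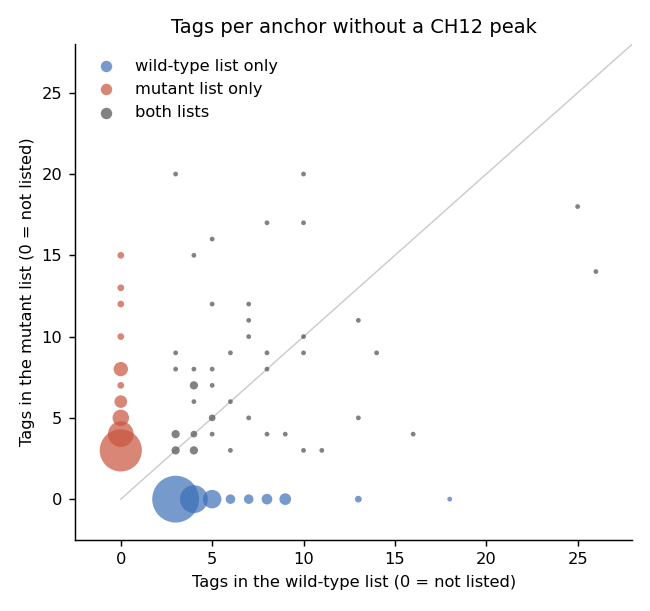
Tags of each peakless anchor in the wild-type list (horizontal axis) and in the mutant list (vertical axis), with 0 where the anchor was not listed; the area of a point grows with the number of anchors at that pair of values, and the line marks equal tags. Most anchors sit on an axis at 3 to 5 tags, and the highest are 26 wild-type and 20 mutant tags.

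Loops with a peakless end were weakly supported as single loops too. The median was 3 tags in the wild-type list, against 4 for its other loops, and 4 in the mutant list, against 5. In the wild-type list 130 of 249 had 3 tags (52.2%, 46.0 to 58.3%), against 32.7% of the other loops. In the mutant list 105 of 227 had 3 tags (46.3%, 39.9 to 52.8%), against 30.9%. Only 9 wild-type loops (3.61% against 15.3%) and 10 mutant loops had 10 or more tags (4.41% against 17.8%).

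Named anchors were the 5 with most tags in each class of list membership. The best supported anchors in both lists show that a loop can be strong in both libraries without a listed CH12 peak. The anchor chr3:14874110-14875089 had 25 wild-type and 18 mutant tags in the same 2 loops, to chr3:15194075-15194977 with 9 and 7 tags and to chr3:15244707-15245661 with 16 and 11 tags. Its B cell peak was weak, at 4.09-fold over background. The anchor chr1:172769616-172770237 had 1 loop of 207 kb, with 26 wild-type and 14 mutant tags, and a B cell peak of 13.3-fold. Both had fewer tags in the mutant library.

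The other 3 anchors of this class had more tags in the mutant library. At chr5:46059381-46060251, which lay 128 kb from the nearest CH12 peak, 1 loop had 7 wild-type and 13 mutant tags and the other had 3 and 7. The anchor chr18:70353191-70353973 had a single loop of 227 kb, with 10 and 17 tags. At chr4:59806747-59807544 the 56.2 kb loop had 3 wild-type and 10 mutant tags, the 76.9 kb loop had 5 and 3, and the 134 kb loop was in the mutant list only, with 4. The loops of this last anchor therefore did not move in 1 direction.

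Among anchors of the wild-type list only, the best supported was chr7:35140444-35141306, with 18 tags in 2 loops of 8 and 10 tags to partners 104 and 89.7 kb to its left. The next were chr1:9686609-9687588 and chr11:106712317-106713391, each with 13 tags. In this class 6 anchors tied at 9 tags for the last places, and ties went by chromosome and start to chr4:109431449-109432270 and chr10:122493854-122494711, with B cell peaks of 16.2-fold and 18.9-fold. Of the 6, 1 had no B cell peak and the others ran from 3.06 to 18.9-fold, so equal tags came with very unequal B cell peaks. For each of the 5 named, every loop fell below 3 tags in the mutant library or was missing for another reason.

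Among anchors of the mutant list only, chr1:194738164-194738989 had 15 tags in loops of 4 and 11 tags. The anchor chr9:103898609-103899586 also had 15, in 3 loops of 5, 6 and 4 tags, all to its left and 502, 372 and 237 kb long. The anchor chr15:36418245-36419284 had 13 tags in loops of 4 and 9, and no B cell peak. The remaining pair, chr1:107607520-107608495 with 13 tags and chr2:13211963-13212921 with 12, a value shared by 1 further anchor of this class, each had a loop to a second peakless anchor.

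Peakless anchors seldom had more than 1 partner. In the wild-type list 188 of 218 had 1 partner (86.2%) and 30 had 2 or more (13.8%, 9.81 to 18.97%), against 42.7% of all anchors of that list. In the mutant list 167 of 196 had 1 partner (85.2%) and 29 had 2 or more (14.8%, 10.5 to 20.4%), against 49.1%. The mean was 1.14 partners (exact Poisson interval 1.00 to 1.29) for wild-type and 1.17 (1.02 to 1.33) for mutant loops, against 1.71 and 1.91 for anchors with a CH12 peak. Every listed anchor has at least 1 partner, which a Poisson interval does not allow for, so these intervals are rough guides only. No peakless anchor had more than 3 partners, while the most for any anchor was 12. Exactly 3 partners were seen at 1 wild-type and 4 mutant anchors. Among these, chr9:66894848-66895735 had 12 tags in loops of 3, 6 and 3 to 3 partners on its right.

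When a peakless anchor did have several partners, these lay mostly to the same side. The direction of motifs at these anchors was not examined. In the wild-type list 26 of 30 such anchors looked to 1 side (86.7%, 70.3 to 94.7%), against 77.5% of anchors with a CH12 peak. In the mutant list it was 27 of 29 (93.1%, 78.0 to 98.1%), against 70.9%. Anchors with a CH12 peak had more partners and so more chances for a partner on the second side, and the 2 shares were not matched for this. An exception was chr10:122493854-122494711, with a 250 kb loop of 3 tags to its left and a 34.8 kb loop of 6 tags to its right.

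The side also recurred between the lists. Of the 51 peakless anchors in both lists, 38 had a loop to the same partner in both, and 13 had different partners. All 13 had partners on 1 side in each list, which always holds where an anchor has a single partner. In 13 of 13 that side was the same (100%, 77.2 to 100%). Of 1535 anchors with a CH12 peak and no partner in common between the lists, 1329 were one-sided in each list. Of these 1329, 1146 kept their side (86.2%, 84.3 to 88.0%), so the 2 shares that kept their side overlap within counting error. The 13 anchors thus had other listed partners in the same direction.

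Shared loops could be compared tag by tag. There were 41 loops with a peakless end in both lists. They made up 16.5% (12.4 to 21.6%) of the loops with such an end in wild-type cells, and 18.1% (13.6 to 23.6%) in mutant cells. The same shares were 47.5% and 46.2% for other loops. The 41 loops had a median of 5 wild-type and 7 mutant tags. After scaling to the sum of listed tags, 6 were 2-fold or more higher in the mutant (14.6%, 6.88 to 28.4%), where 12.6% of all 5400 shared loops were. Another 2 were 2-fold or more higher in the wild type (4.88%, 1.35 to 16.1%), where 10.9% of all shared loops were. The median scaled difference, mutant over wild type, was -0.15 on the log2 scale, against 0.00386 for all shared loops. Once a loop was in both lists, a peakless end was accompanied by no shift in tags that stood clear of the background counts.

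Loop length was close to that of other loops. Span is the distance between the midpoints of the anchors. The median was 132 kb in the wild-type list (116 to 158 kb, quartiles 69.2 and 261 kb), against 131 kb for its other loops. It was 170 kb in the mutant list (149 to 187 kb, quartiles 93.1 and 289 kb), against 152 kb (149 to 156 kb). Wild-type spans ran from 11.9 to 1435 kb and mutant spans from 8.42 to 1370 kb. Both kinds of loop had longer medians in the mutant list.

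At the ends of the distribution the differences were uneven. Loops of 800 kb or more were 14 of 249 in the wild-type list (5.62%, 3.38 to 9.22%), against 2.45% of other loops, and 11 of 227 in the mutant list (4.85%, 2.73 to 8.47%), against 3.36%. Loops of 400 kb or more were 14.5% of the wild-type loops (10.6 to 19.4%), against 11.7%, and 15.4% of the mutant loops (11.3 to 20.7%), against 15.2%. Loops under 50 kb were 43 of the wild-type loops (17.3% against 18.3%) and 21 of the mutant loops (9.25%, 6.13 to 13.7%, against 14.4%). Of these 6 comparisons, the other loops lay outside the counting interval for wild-type loops of 800 kb or more and mutant loops under 50 kb only. Anchors found in both lists had the longer loops, with medians of 180 kb (147 to 203 kb) for 66 wild-type loops and 190 kb (158 to 226 kb) for 66 mutant loops. Anchors of the wild-type list only had a median of 118 kb (99.1 to 147 kb, 183 loops), and those of the mutant list only 154 kb (120 to 183 kb, 161 loops). In the mutant list the intervals of these medians overlap. The same split was not made for anchors with a CH12 peak.

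The other end of the loop had a CH12 peak in 249 of 249 wild-type and 225 of 227 mutant loops. This is close to the background, since 98.9% of all loop ends of the wild-type list and 99.03% of those of the mutant list had one. The partner's CH12 peak had a median score at the 78.1 percentile of the CH12 list (72.7 to 82.5) for wild-type loops, close to the 78.8 of partners in other loops. For mutant loops it was at the 74.8 percentile (71.1 to 78.7), against 80.8. The partner itself was also in the other list in 186 of 249 wild-type loops (74.7%, 69.0 to 79.7%, against 75.8%) and in 167 of 225 mutant loops (74.2%, 68.1 to 79.5%, against 81.7%). It had a further loop in the same list in 181 wild-type cases (72.7% against 66.8%) and 171 mutant cases (76% against 73.6%). Partners of wild-type loops were thus close to the ends of other loops in peak score and recurrence, while partners of mutant loops had lower scores and recurred less often than ends of other mutant loops. In both lists most partners recurred, while most of the peakless ends did not.

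The 2 loops with a peakless anchor at both ends were in the mutant list only. The first joined chr1:107556206-107557183 to chr1:107607520-107608495 over 51.3 kb with 13 tags, and its ends had B cell peaks of 14.4-fold and 6.49-fold. The second joined chr2:13211963-13212921 to chr2:13518467-13519241 over 306 kb with 4 tags, with B cell peaks of 12.1-fold and 16.1-fold. Both pairs lay at CTCF peaks of normal B cells.

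Loops with a peakless end ran beside a second loop from the same partner more often than the ends of other loops did. Other loops were counted from each of their ends. A second loop of that partner ending within 25 kb of the peakless anchor was present in the same list for 81 wild-type loops (32.5%, 27.0 to 38.6%, against 24.2% of the ends of other loops). In the mutant list it was present for 71 (31.6%, 25.8 to 37.9%, against 22.7%). In the opposite library's list such a neighbouring end was found for 71 wild-type loops (28.5% against 21.6%) and 67 mutant loops (29.8% against 20.9%). The partners of peakless anchors had a mean of 2.59 wild-type and 2.80 mutant partners, against 2.36 and 2.73 for ends of other loops, and the part of this in the share of parallel loops was not tested. The median number of CH12 peaks inside the loop, a count from the list that chose the anchors, was 2 (2 to 3) for wild-type and 3 (3 to 4) for mutant loops, against 3 and 4 for other loops. The nearest CH12 peak, again from that list, lay towards the partner in 98 wild-type loops (39.4% against 41.1%) and 92 mutant loops (40.9% against 41.4%). For ends of other loops the nearest further CH12 peak was taken, so the 2 measures are not quite alike.

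The distance to CH12 peaks is what chose these anchors and is given as a description only. The median gap was 8261 bp (6908 to 9964 bp), with quartiles of 2498 and 24866 bp. It was 10334 bp for the wild-type list only, 6828 bp for the mutant list only and 8806 bp for both. For the B cell peaks that share no base with a CH12 peak, which were not chosen by loops, the median was 11721 bp. There were 39 peakless anchors within 1 kb of a CH12 peak (10.7%), 94 at 1 to 5 kb, 140 at 5 to 25 kb, 74 at 25 to 100 kb and 16 at 100 kb or more (4.41%). The class of 25 to 100 kb held 45 anchors of the wild-type list only and 20 of the mutant list only, while the class under 1 kb held 15 and 21. The numbers were 45 and 37 at 1 to 5 kb, 57 and 61 at 5 to 25 kb, and 5 and 6 at 100 kb or more. The balance of the lists thus had no steady trend with distance.

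**Figure D4:**
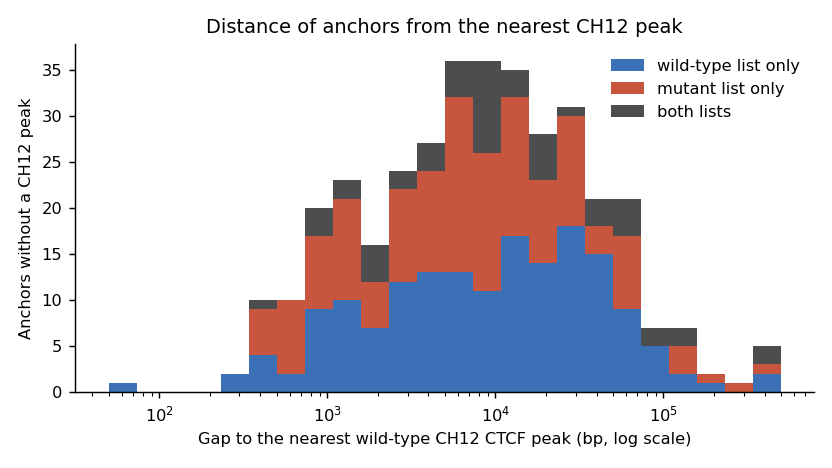
Number of peakless anchors (vertical axis) by the gap to the nearest CH12 CTCF peak (horizontal axis, bp, log scale), stacked by list membership. The gaps run from 60 to 434643 bp with a median of 8261 bp, and the wild-type list only takes most of the anchors at 25 to 100 kb.

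Near the limit of the rule, the 5 nearest peakless anchors lay 60, 315, 325, 374 and 381 bp from a CH12 peak. All 5 were in the wild-type list only with 3 or 4 tags, and the nearest was chr5:101248258-101249377. On the other side of the limit, the 5 anchors with the smallest overlap shared 252, 263, 269, 271 and 277 bp with a CH12 peak. Those that shared 252, 263 and 277 bp were narrow anchors that lay wholly inside CH12 peaks, and so were not marginal overlaps. One of the 5 was in both lists, with 7 and 6 tags, and the other 4 were in 1 list with 3 tags.

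The nearest CH12 peak was itself at a loop anchor for 202 of 363 peakless anchors (55.6%, 50.5 to 60.7%), while 43.6% of all CH12 peaks were. Peaks next to other anchors were not counted in this way, so whether the higher share is particular to peakless anchors was not tested. The median score of the nearest CH12 peak stood at the 46.8 percentile of the CH12 list (41.7 to 53.4). The nearest other anchor lay at a median of 17638 bp, against 17296 bp for anchors with a CH12 peak, and 78 had another anchor within 5 kb (21.5% against 21.6%). Peakless anchors were thus no closer to other anchors than anchors with a CH12 peak were.

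The most remote anchors carried loops in one or both libraries. The farthest, chr15:24518382-24519293, lay 435 kb from any CH12 peak and had 9 wild-type tags in loops of 1129 and 1207 kb, and a B cell peak of 11.1-fold. The anchor chr2:110898507-110899338, at 395 kb, had 11 wild-type and 3 mutant tags and a B cell peak of 10.5-fold. The anchor chr4:81209950-81210924, at 385 kb, had 7 wild-type and 12 mutant tags and no B cell peak. Of the 16 anchors at 100 kb or more, 5 were in both lists.

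The B cell peaks were not used by the rule. Of 363 peakless anchors, 315 overlapped a CTCF peak of resting and activated B cells (86.8%, 82.9 to 89.9%), where 97.7% of all anchors did. The share was 147 of 167 for the wild-type list only (88.0%), 123 of 145 for the mutant list only (84.8%) and 45 of 51 for both (88.2%), so it did not separate the classes. It was like that of anchors with the weakest CH12 peaks, at 84.1% in score class 1 (80.1 to 87.5%) and 87.9% in class 2, and below the 99.97% of class 10. The summit of the B cell peak lay inside the anchor in 311 of 315 cases, at a median of 44 bp from its midpoint, against 41 bp for anchors with a CH12 peak. The anchors therefore sat on the B cell summits about as closely as other anchors did.

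The strength of these B cell peaks, as the fold over background deposited by the authors, was spread more widely than at other anchors. The median was 7.39-fold (6.99 to 7.79, quartiles 5.36 and 10.1, range 2.51 to 19.1), against 8.26-fold at anchors with a CH12 peak. Peaks from the weakest 25% of the B cell list were more frequent, at 40 of 315 (12.7%, 9.47 to 16.8%), against 2.67%. Peaks from the strongest 10% were as frequent, at 60 of 315 (19.05%, against 17.9%). For the peakless anchors in both lists the median was 8.55-fold (6.50 to 11.2), and 16 of 45 had a peak from that strongest 10% (35.6%, 23.2 to 50.2%). The same share was 16.3% for peakless anchors of the wild-type list only and 16.3% for those of the mutant list only. Over all anchors in both lists it was 17.1%. The highest values were 19.1-fold at chr3:102988041-102989069, which had 10 wild-type and 9 mutant tags, 18.9-fold at chr10:122493854-122494711 and 18.4-fold at chr4:48340665-48341560, which had 4 wild-type tags. A peakless anchor could thus lie at one of the strongest CTCF sites of normal B cells.

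**Figure D5:**
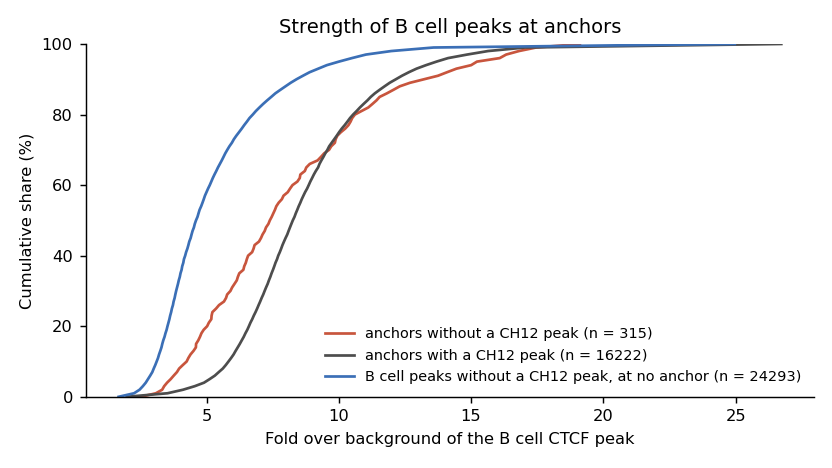
Cumulative share (vertical axis, %) of B cell CTCF peaks by fold over background (horizontal axis) for peakless anchors (red, n = 315), anchors with a CH12 peak (grey, n = 16222) and B cell peaks that share no base with a CH12 peak and lie at no anchor (blue, n = 24293). The medians were 7.39, 8.26 and 4.60-fold; the red curve lies left of the grey one up to about the upper quartile, crosses it and lies to its right above, at 13.2 against 12.2-fold at the 90th percentile.

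Read from the B cell side, 24900 B cell peaks shared no base with a CH12 peak, and 330 of these lay at a peakless anchor (1.33%). The share was 0.418% in the weakest of 10 fold classes and 6.76% in the strongest, where it was 60 of 887 peaks. Together with anchors that reach a CH12 peak elsewhere, 607 of the 24900 lay at any anchor (2.44%). That share did not rise steadily with fold: it was 2.77% in class 1, the weakest, 1.33% in class 2 and 6.88% in class 10. Of B cell peaks that did share a base with a CH12 peak, 47.5% lay at an anchor. Most CTCF sites that were listed in B cells and not in CH12 cells thus had no listed CH12 loop, the strongest among them having one more often.

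The remaining 48 peakless anchors had no CTCF peak in either list. Their median gap to the nearest B cell peak was 6267 bp, with a range of 943 to 311698 bp. In the wild-type list 26 of them had a median of 3 tags and at most 9, and 15 had exactly 3 tags (57.7%). In the mutant list 28 had a median of 4 tags and at most 13, and 11 had exactly 3 tags (39.3%). Best supported were chr4:81209950-81210924, whose loops of 978 to 1370 kb are among the longest of peakless anchors, chr15:36418245-36419284, and chr19:38011324-38012309, with 8 wild-type and 4 mutant tags. Those without any listed peak thus included anchors of both lists and were not limited to loops of 3 tags.

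The shape of the intervals also differed between the anchor types. Per the file headers, the authors placed loop ends at called CTCF peaks that hold a core motif, and the sources used here do not say which cells gave those calls. An edge in common with a CH12 peak was found at 2856 of 16565 anchors with a CH12 peak (17.2%), 1666 of them at both edges (10.1%). Peakless anchors share no edge with a CH12 peak by their choice, and 0 of 363 shared one with a B cell peak, which allows up to 1.05% (Wilson). For anchors with a CH12 peak, an edge in common with a B cell peak was found at 20 (0.121%). Peakless anchors were 943 bp wide at the median (610 to 2214 bp), against 1067 bp (252 to 10172 bp). The part that these peak calls play in which anchors lack a CH12 peak was not tested.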

How the data were processed

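ChIA-PET loop lists and CTCF ChIP-seq peak lists were analysed, with groups taken from the sample labels. The loop lists hold counts of tags per loop as deposited; per the file headers, loop ends are called CTCF peaks that hold a core motif, and loops have at least 3 tags and no more than 2 Mb between their ends. The authors' CH12 peak list, as deposited, holds 1 score per peak on no stated scale, used here only as a rank. For B cells the deposited narrowPeak table gives each peak's fold over background, a ratio, and its −log10 q-value, which decided no result. The submitters' processing notes name mm9 as the build and, with no roles, list BWA, bedtools 2.25, SAMtools 1.2, Bowtie 1.1.1 and CASAVA 1.8.2. The sources used here do not say whether peaks were called on pooled libraries, or how deep each ChIA-PET library was.

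Anchors were the intervals of the lists and overlapped a peak when they shared at least 1 bp. Loops were shared when both anchors were identical. Shares have 95% Wilson intervals, medians exact binomial order-statistic intervals and mean partners exact Poisson intervals. With 1 library per genotype no test was made. The members and the comparisons were chosen with earlier results of these data known. Named anchors were the 5 with most tags in each class of list membership, the 3 with most partners, the 3 with the highest B cell fold, the 3 with most tags and no B cell peak, the 3 farthest from and the 5 nearest to a CH12 peak, with ties by chromosome and start. Alternatives were 4 or more tags, no CH12 peak within 1000 bp, no other anchor within 5000 bp and a span of at most 1 Mb. For B cell peaks they were a peak centre inside the anchor, and peaks at or above the median fold. For shared loops they were tags scaled to loops in both lists, and 10 or more tags in both libraries together. Genes and sequences at the anchors are not given, since no mm9 annotation or genome was used here. Simulated lists with planted anchors were used to test the choice of members and the wild-type tags per anchor. They also tested the gap to the nearest CH12 peak and the overlap with B cell peaks. The other steps were not tested in this way. The scripts ran under Python 3.11.15 with pandas 2.3.3, numpy 2.4.6, matplotlib 3.10.9 and scipy 1.17.1.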

Additional observations from a re-analysis of the deposited data

How the results depend on the processing

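Of 36 alternatives over 12 results, 34 kept the value within its counting interval. The alternatives were run for the values of peakless anchors and not for the anchors and loops they are compared with, so the size of those differences under the alternatives was not tested. With loops of 4 or more tags only, 180 peakless anchors remained and 18.9% were in both lists (13.8 to 25.2%), against 14.05%. With only B cell peaks at or above the median fold, which leaves fewer peaks by construction, 54.3% of peakless anchors overlapped one, against 86.8%. Leaving out peakless anchors within 1000 bp of a CH12 peak left 324, and leaving out those with another anchor within 5000 bp left 285. Fewer than 3 tags cannot be seen in either list, so absence from a list is not absence of a loop, and the small classes at 10 or more tags resolve only large differences. No paired analysis was possible because each genotype had a single ChIA-PET library.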

Other observations

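Peakless anchors lay on every chromosome with listed loops. Their share of a chromosome's anchors ran from 1.20% on chromosome 10 (10 of 830) to 3.45% on chromosome 16 (18 of 521, 2.20 to 5.39%). The largest number was on chromosome 4, with 37 of 1102 anchors (3.36%, 2.45 to 4.59%). These chromosomes were named after their values were seen. The reason for the differences was not tested.

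In 15 places 2 or more followed each other with no anchor with a CH12 peak between them, which took in 32 of the 363 (8.82%), and the longest such run held 3. Peakless anchors were 2.14% of all anchors. Whether they adjoined more often than this share gives was not tested.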
